A study of Homo sapiens with 3 samples.

Results

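The genes described here are 52 transcription factors that pattern tissues other than blood, such as brain, eye, heart, kidney, limb, pancreas and endoderm. They are a list of gene names, all 52 were found by symbol in the RefSeq gene table, and they are set among the 19974 protein-coding genes that the table holds on the autosomes and X. The study profiled 2 histone marks by chromatin immunoprecipitation and sequencing in wild-type KBM7, a human leukaemia line of chronic myeloid origin that carries BCR-ABL and is close to haploid. Cells were grown in IMDM with fetal serum, and no treatment is named. There was 1 library with an Abcam antibody to H3K27ac, 1 with a Millipore antibody to H3K4me3 and 1 input, whose own file was not used here. For each gene the peaks overlapping its hg38 record with 1 kb either side were taken, and the gene was classed as having both marks, H3K4me3 only, H3K27ac only or neither. With 1 library per mark from 1 line, no value here has a replicate error and no test between conditions or gene lists was made.

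These factors bind DNA through homeodomains, paired domains, T-boxes, forkheads, zinc fingers, high mobility group boxes or basic helix-loop-helix domains, and they set the identity of cells in the embryo. Their promoters are typically rich in CpG sites, and in cells that do not use them they are known targets of Polycomb repression. H3K4me3 is deposited at promoters with unmethylated CpG-rich DNA and can be present without transcription. H3K27ac is found at active promoters and enhancers.

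The promoters of 5 members are shown because CpG-rich sequence was found in members of every class, also in those without a mark. Each line gives the 120 bases just before the annotated start, from RefSeq (GRCh38.p14), 5′ to 3′ on the strand of the gene, with CpG sites in capitals. FOXC1 and DLX1 had both marks, SOX2 had H3K4me3 only, and TBX18 and OTX2 had neither.
FOXC1 (chr6:1609795-1609914, plus strand): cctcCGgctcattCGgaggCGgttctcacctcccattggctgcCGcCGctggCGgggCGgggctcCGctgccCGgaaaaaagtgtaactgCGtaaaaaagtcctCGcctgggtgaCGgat
DLX1 (chr2:172085387-172085506, plus strand): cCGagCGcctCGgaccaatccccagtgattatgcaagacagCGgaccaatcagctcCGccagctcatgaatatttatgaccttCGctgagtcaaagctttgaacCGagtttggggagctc
SOX2 (chr3:181711805-181711924, plus strand): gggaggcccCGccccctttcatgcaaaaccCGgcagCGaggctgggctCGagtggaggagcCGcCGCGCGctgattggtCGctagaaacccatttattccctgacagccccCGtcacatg
TBX18 (chr6:84764599-84764718, minus strand): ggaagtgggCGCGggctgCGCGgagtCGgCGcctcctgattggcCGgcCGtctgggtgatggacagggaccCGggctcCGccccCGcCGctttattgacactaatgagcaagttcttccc
OTX2 (chr14:56810480-56810599, minus strand): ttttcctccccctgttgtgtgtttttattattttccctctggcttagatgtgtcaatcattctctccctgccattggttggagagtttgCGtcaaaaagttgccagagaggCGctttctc
The stretch of TBX18 held 12 CpG sites, as many as that of FOXC1. There were 7 in that of DLX1, 10 in that of SOX2 and 2 in that of OTX2.

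Many of these non-blood factors carried marks in the leukaemia line, but a smaller share of them than of all genes carried both. Both marks were found at 25 of 52 members (48.1%), against 67.3% of all protein-coding genes and 70.0% of those within the members' range of gene lengths. That range, 2512 to 118021 bp, takes in 15616 genes and does not match the members' lengths. The median gene record was 7962.5 bp for members and 24170.5 bp for all protein-coding genes. H3K4me3 without H3K27ac was found at 11 members (21.2%), against 6.24% of all genes. Neither mark was found at 16 (30.8%, all genes 23.8%), and none had H3K27ac only (all genes 2.65%). H3K4me3 with or without H3K27ac was near the background, at 36 of 52 members (69.2%) against 73.6%. H3K27ac was below it, at 25 of 52 against 70.0%. A gene without a peak is one at which the authors' lists hold none, which does not show that the mark is absent.

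**Figure D1:**
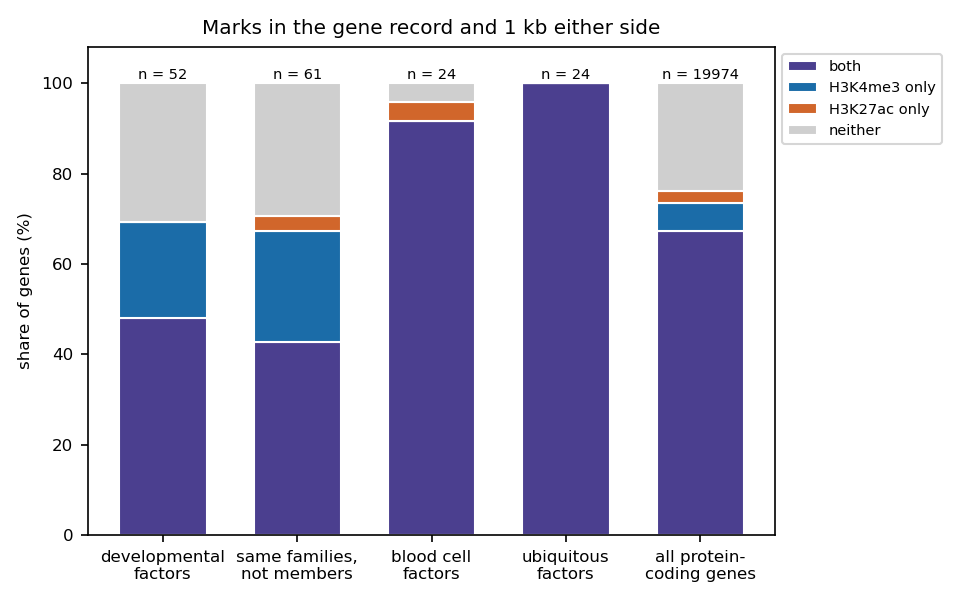
Share of genes in each class (%) for the 52 developmental factors, 61 other factors of the same families, 24 blood cell factors, 24 ubiquitous factors and all 19974 protein-coding genes. H3K4me3 without H3K27ac was found at 21.2% of the developmental factors and 24.6% of their relatives, against 6.24% of all genes.

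Of 24 blood cell factors 22 had both marks, KLF1 had H3K27ac only and IRF8 had neither. The highest H3K4me3 folds among them were at GFI1 (88.1), CEBPA (85.6) and HHEX (85.4). The lowest were at CEBPE (5.94 over 525 bp) and at GATA1 (6.16 over 335 bp), a defining factor of red cells and platelets. All 24 ubiquitous factors had both marks too, with SRF (99.6), MAX (94.8) and USF2 (91.8) highest. In contrast, the 61 other factors of the members' families were split much as the members were, with 26 having both marks (42.6%), 15 H3K4me3 only (24.6%), 2 H3K27ac only and 18 neither. DLX4 (84.2), FOXD2 (83.6) and SOX18 (82.1) had the highest H3K4me3 folds of these relatives.

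Where H3K4me3 was present at a member, its strength ranged widely. The fold is the authors' value for each peak, the pileup of fragments at the summit over the level expected there. The strongest H3K4me3 peak per member had a fold from 4.82 at NEUROD1 to 98.2 at FOXC1, with a median of 57.3 over the 36 members with a peak, against 62.3 over 14694 protein-coding genes with one. For H3K27ac the strongest peak ranged from 3.89 at LHX1 to 40.5 at SIX3, with a median of 21.5 over 25 members against 22.9 over 13977 genes. This nearness depends on the part of the gene taken. Within 1 kb of both ends of the gene record the median was 14.3 over 21 members against 22.95 over all genes, and within 1 kb of the annotated starts 14.3 over 19 members against 23.3. The value of SIX3 was measured at a summit outside its window. Members without a peak have no fold and are outside these medians. The folds below are of the strongest peak in the window, and the fragments are those at its summit with an exact Poisson 95% interval where one is given.

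**Figure D2:**
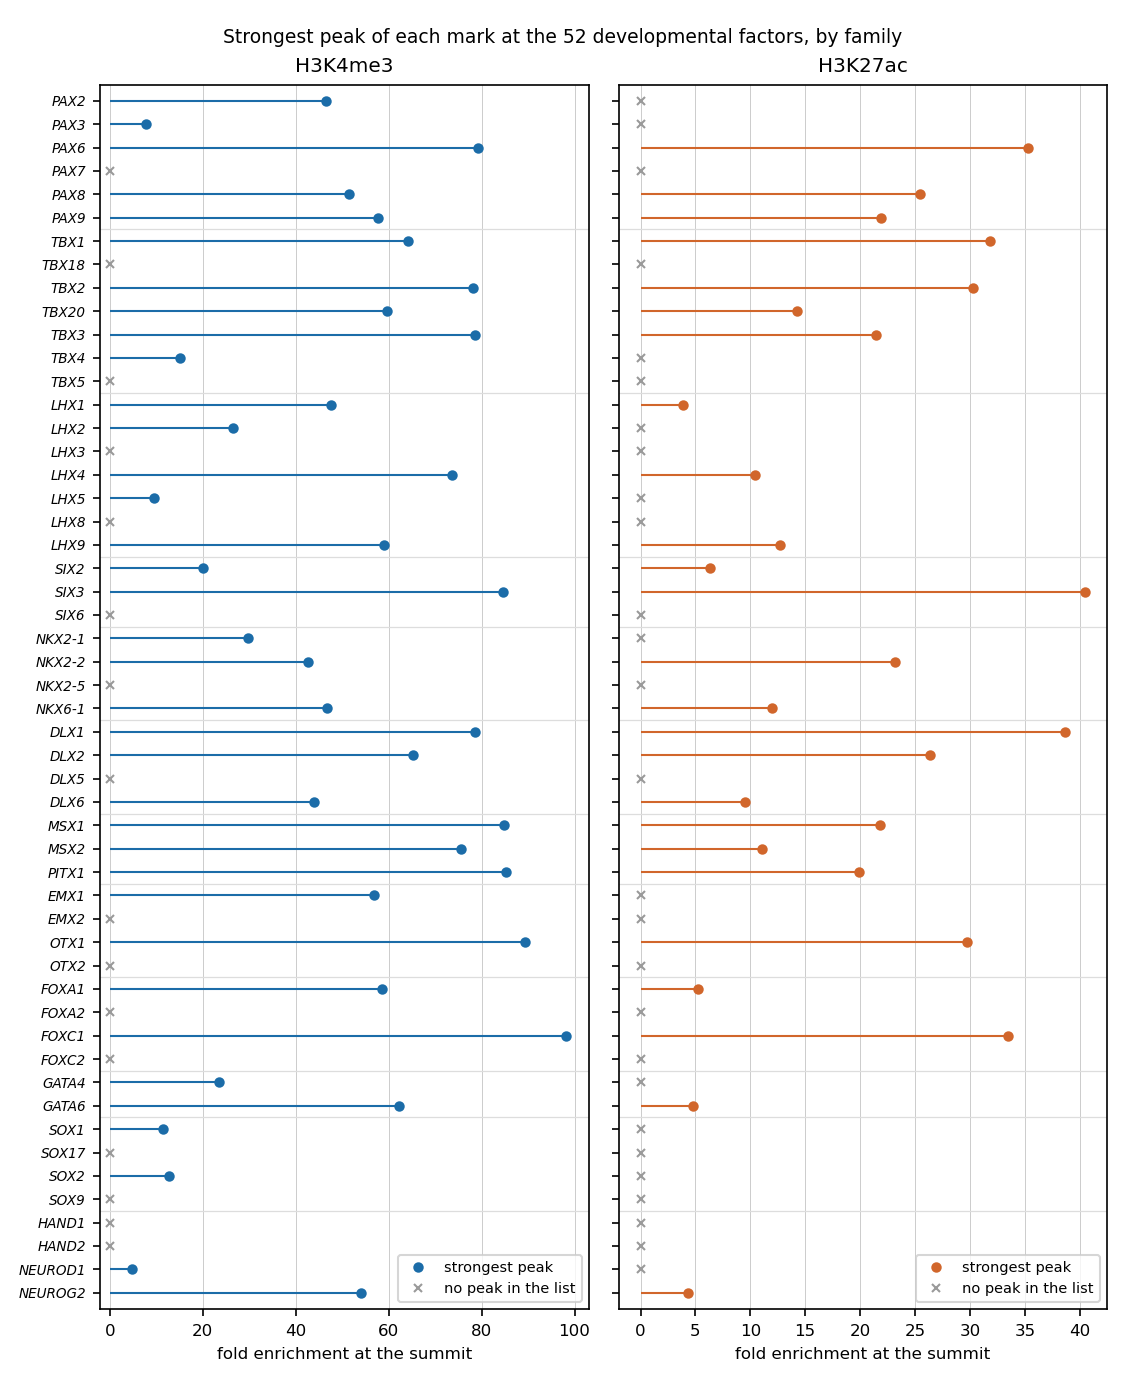
Fold enrichment of the strongest H3K4me3 peak and of the strongest H3K27ac peak at each of the 52 factors, grouped by family, with genes without a peak marked at 0. H3K27ac peaks were found at 25 members, each of which also had H3K4me3.

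All 3 members of the MSX and PITX group had both marks. PITX1, which specifies hindlimb and pituitary, had an H3K4me3 fold of 85.3 over 3017 bp (chr5:135031787-135034803) with 262 fragments. H3K27ac there had a fold of 19.9 over 2173 bp with 76 fragments. MSX1, a factor of teeth and palate, had 84.8 over 2223 bp (chr4:4859131-4861353, 247 fragments) for H3K4me3 and 21.8 over 1145 bp (100 fragments) for H3K27ac. Its close relative MSX2, of skull and limb, had nearly as strong an H3K4me3 fold, 75.6 over 2564 bp (chr5:174723486-174726049, 220 fragments). H3K27ac at MSX2 was weaker, with a fold of 11.1 over 743 bp and 41 fragments, and it covered 29.0% of the H3K4me3 interval.

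The DLX genes act in forebrain interneurons, jaw and limb and lie in the genome as neighbouring pairs. DLX1 had an H3K4me3 fold of 78.6 over 3112 bp (chr2:172083989-172087100) with 278 fragments (246 to 313). Its H3K27ac fold of 38.6, over 3043 bp with 181 fragments (156 to 209), was the second highest of the members, and the interval covered 97.8% of the H3K4me3 interval. DLX2, 9.76 kb away, had 65.4 over 3204 bp (chr2:172100819-172104022, 246 fragments) and an H3K27ac fold of 26.4 over 2187 bp (110 fragments). The other pair was less marked. DLX6 had 44.0 over 2056 bp (chr7:97004897-97006952, 180 fragments) and an H3K27ac fold of 9.51 over 1237 bp (39 fragments), and DLX5, 9.36 kb from it, had neither mark.

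The sine oculis homeobox genes pattern eye, forebrain and kidney, and SIX3 had the widest H3K27ac interval of all members. That interval, chr2:44929047-44944838, was 15792 bp wide with a fold of 40.5 and 210 fragments (183 to 240.4), and it ranked 36 by width among 96659 in the list. Of that interval 4137 bp lie in the window of SIX3, and its summit, where the fold and the fragments were measured, lies outside. H3K4me3 had a fold of 84.5 over 5080 bp (chr2:44940372-44945451) with 291 fragments (259 to 326). The summits of the 2 marks were 7159 bp apart, and the H3K27ac interval also lies over SIX3-AS1 and LINC01833, so that its signal cannot be assigned to SIX3 alone. SIX2, a factor of nephron progenitors 59.1 kb away, was far weaker, with 20.1 over 1502 bp (chr2:45008774-45010275, 94 fragments) for H3K4me3 and 6.32 over 341 bp (23 fragments) for H3K27ac. SIX6, of eye and pituitary, had neither mark.

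Among the OTX and EMX genes of the anterior brain, paralogs differed in class. OTX1 had an H3K4me3 fold of 89.3 over 3908 bp (chr2:63048773-63052680, 260 fragments), the second highest of the members, and an H3K27ac fold of 29.7 over 1674 bp (112 fragments). OTX2 had neither mark, and its nearest H3K4me3 peak lay 218 kb away. EMX1 had H3K4me3 only, in 3 peaks, the strongest with a fold of 56.8 over 1819 bp (chr2:72917161-72918979) and 165 fragments (141 to 192). This was the highest H3K4me3 fold at a member without H3K27ac, and the nearest H3K27ac peak was 27558 bp from the gene record. EMX2 had neither mark.

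The forkhead genes split within both pairs of paralogs. FOXC1, a factor of mesoderm, eye and vessels, had the strongest and the widest H3K4me3 peak of all members, with a fold of 98.2 over 5690 bp (chr6:1608868-1614557) and 286 fragments (254 to 321). It ranked 95 by fold among 36951 peaks. H3K27ac at FOXC1 had a fold of 33.4 over 3853 bp with 126 fragments. FOXC2 had neither mark. FOXA1, a pioneer factor of endoderm, had H3K4me3 at 58.5 over 2059 bp (chr14:37594408-37596466, 170 fragments) and weak H3K27ac at 5.26 over 614 bp with 19 fragments (11.4 to 29.7). FOXA2, its paralog in endoderm, had neither mark, with the nearest H3K4me3 peak 399 kb away.

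Of the T-box genes, which act in heart, limb and pharynx, 4 of 7 had both marks. TBX3 had an H3K4me3 fold of 78.7 over 4315 bp (chr12:114681157-114685471, 239 fragments) and an H3K27ac fold of 21.5 over 1066 bp (111 fragments). TBX2 had 78.2 over 3926 bp (chr17:61397850-61401775, 272 fragments) and 30.3 over 2807 bp (139 fragments). These are paralogs of limb and heart, and their H3K4me3 values were alike. TBX20, a cardiac factor, had 59.6 over 3653 bp (chr7:35250914-35254566, 244 fragments) and 14.3 over 2208 bp (78 fragments). TBX1, of the pharyngeal arches, had 4 H3K4me3 and 6 H3K27ac peaks in its window, the strongest at 64.2 over 1474 bp (chr22:19766227-19767700, 223 fragments) and 31.8 over 1579 bp (122 fragments). The limb genes TBX4 and TBX5 lie 43.0 kb from TBX2 and 262 kb from TBX3 and were in other classes than those neighbours. TBX4 had H3K4me3 only, at a fold of 15.2 with 51 fragments, and TBX5 had neither mark, as did TBX18.

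Of the paired-box genes 3 of 6 had both marks. PAX6, a master factor of the eye, had H3K4me3 at 79.3 over 3909 bp (chr11:31807386-31811294) with 271 fragments (239.7 to 305). Its H3K27ac peak, at 35.2 over 3545 bp with 165 fragments (141 to 192), had its summit 13 bp from that of H3K4me3. PAX9, of teeth and thymus, had 57.8 over 3456 bp (chr14:36661166-36664621, 204 fragments) and 21.9 over 1420 bp (91 fragments). PAX8 acts in thyroid and kidney and had 8 H3K27ac peaks, the most of any member. Its strongest peaks had folds of 51.5 over 2677 bp (chr2:113234858-113237534, 243 fragments) and 25.5 over 2348 bp (140 fragments). PAX2, of kidney and optic stalk, had H3K4me3 only, at 46.5 with 137 fragments, and PAX3, of neural crest and muscle progenitors, had 1 H3K4me3 peak of 345 bp with 22 fragments (13.8 to 33.3). PAX7, the paralog of PAX3, had neither mark.

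The LIM homeobox genes specify neurons, pituitary, kidney and gonad, and 3 of 7 had both marks. LHX4, a pituitary factor, had H3K4me3 at 73.6 over 3476 bp (chr1:180228953-180232428, 243 fragments) and H3K27ac at 10.4 over 2511 bp (66 fragments). LHX9, of the gonad, had 59.1 over 3702 bp (chr1:197915449-197919150, 188 fragments) and 12.7 over 1615 bp (48 fragments). LHX1, of kidney and head, had a broad H3K4me3 interval but a minimal H3K27ac peak. H3K4me3 had a fold of 47.7 over 4007 bp (chr17:36934462-36938468, 146 fragments), and H3K27ac one of 3.89 over 207 bp with 16 fragments (9.15 to 26.0). LHX2 and LHX5 had H3K4me3 only, at 26.5 and 9.58, and LHX3 and LHX8 had neither mark.

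Of the NKX homeobox genes NKX6-1, a factor of pancreatic beta cells, had H3K4me3 at 46.7 over 3547 bp (chr4:84496588-84500134, 249 fragments) and H3K27ac at 12.0 over 2540 bp (87 fragments). NKX2-2, of pancreas and ventral spinal cord, had H3K4me3 at 42.6 over 2460 bp (chr20:21509459-21511918, 170 fragments). An H3K27ac interval of 6720 bp with a fold of 23.1 and 148 fragments covered all of it. NKX2-1, of thyroid and lung, had H3K4me3 only, at 29.8 with 103 fragments, and NKX2-5, of heart, had neither mark. Both GATA members act in heart and endoderm. GATA6 had H3K4me3 at 62.3 over 2806 bp (chr18:22168402-22171207, 181 fragments) and an H3K27ac peak of 207 bp at 4.74 with 17 fragments (9.90 to 27.2), and GATA4 had H3K4me3 only, at 23.6 with 96 fragments.

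None of the 4 SOX genes had H3K27ac. SOX2 and SOX1, of neural progenitors, had H3K4me3 only, at 12.7 over 1266 bp (chr3:181711388-181712653) with 37 fragments (26.1 to 51.0) and at 11.4 over 1220 bp with 53 fragments (39.7 to 69.3). SOX9, of cartilage and testis, and SOX17, of endoderm, had neither mark. Of the basic helix-loop-helix genes NEUROG2, a proneural factor, had H3K4me3 at 54.1 over 3498 bp (chr4:112514232-112517729, 188 fragments). Its H3K27ac peak was 205 bp wide with a fold of 4.32 and 19 fragments (11.4 to 29.7). NEUROD1, of neurons and endocrine pancreas, had 1 H3K4me3 peak at 4.82 with 15 fragments (8.40 to 24.7), and HAND1 and HAND2, of heart and limb, had neither mark. In 11 of the 12 family groups the members fell into more than 1 class, the exception being MSX and PITX. The groups held 2 to 7 genes, and no count for other groups of genes is given. This count is therefore no result about the families.

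Members with both marks had stronger and wider H3K4me3 peaks than members with H3K4me3 only, in medians, and so did all genes. With both marks the strongest H3K4me3 peak had a median fold of 64.2 (20.1 to 98.2) and a median width of 3456 bp. With H3K4me3 only the medians were 15.2 (4.82 to 56.8) and 1220 bp. Over all protein-coding genes the corresponding folds were 64.7 and 20.1, and the widths 2603.5 and 996.5 bp. The fold ranges of the 2 classes overlapped: EMX1, PAX2, NKX2-1, LHX2 and GATA4, all without H3K27ac, lay above SIX2, which had both marks.

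**Figure D3:**
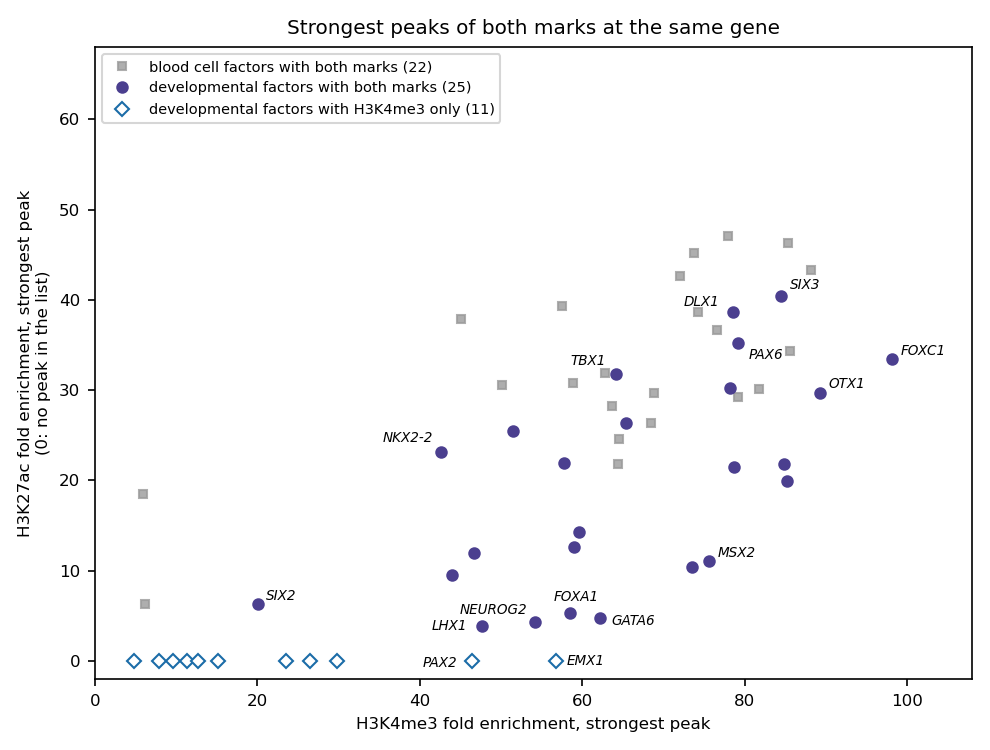
Strongest H3K4me3 fold against strongest H3K27ac fold (0 where the list holds no peak) for 25 members with both marks, 11 with H3K4me3 only and 22 blood cell factors with both. LHX1, NEUROG2, GATA6 and FOXA1 lie at H3K27ac folds of 3.89 to 5.26, with H3K4me3 folds of 47.7 to 62.3.

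Protein-coding genes with H3K4me3 were divided into quartiles by the fold of their strongest peak, a division chosen after the values had been seen. Of the 12 members in the lowest quartile, up to a fold of 45.9, 3 had both marks (DLX6, NKX2-2 and SIX2), against 70.6% of all genes in it. In the second quartile 9 of 11 members had both marks, against 96.0%, the others being EMX1 and PAX2. Both marks can lie apart in a long gene. H3K27ac overlapped the strongest H3K4me3 peak itself at 3 of 12 members of the lowest quartile, against 63.5% of all genes. In the second quartile it did so at 9 of 11, against 95.2%. All 3 members in the third and all 10 in the highest quartile had both marks, as did 99.5% of all genes in the third and 3652 of 3653 in the highest.

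At all 25 members with both marks a peak of one mark overlapped a peak of the other, near the 98.8% of all protein-coding genes with both marks. The summits of the strongest peaks lay a median of 185 bp apart, and within 100 bp at 11 of 25 genes. For these distances no value over all genes is given. H3K27ac covered a median of 80.1% of the strongest H3K4me3 interval, close to the 80.3% of all genes with both marks. The median was 97.6% in the blood cell factors and 90.6% in the ubiquitous factors. Coverage was lowest at LHX1 (5.17%), NEUROG2 (5.86%) and GATA6 (7.38%), which count as having both marks through H3K27ac peaks of 16 to 19 fragments. The strongest H3K4me3 interval was 3456 bp wide in the median at members with both marks. It was 5119.5 bp at the blood cell factors and 4470.5 bp at the ubiquitous factors.

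**Figure D4:**
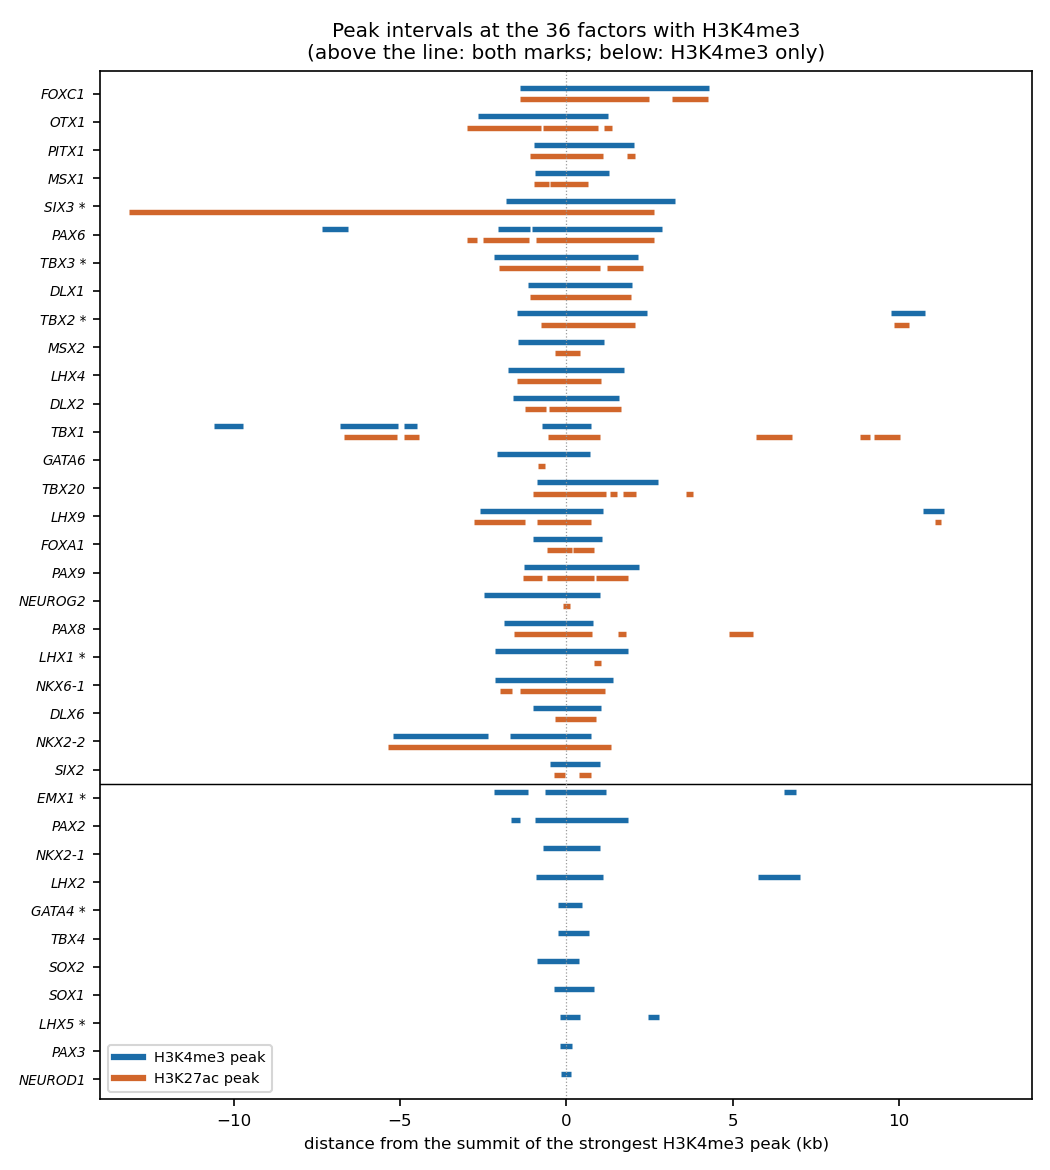
Peak intervals of H3K4me3 and H3K27ac at the 36 factors with H3K4me3, as distance in kb from the summit of the strongest H3K4me3 peak, within 14 kb and in order of its fold within each class (both marks above the line, H3K4me3 only below). Genes run left to right along their strand, or along the genome where an asterisk marks a gene with no listed strand. SIX3 has the widest H3K27ac interval, 15792 bp, and LHX1, NEUROG2 and GATA6 have H3K27ac intervals of 205 to 207 bp.

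An annotated start lay inside the strongest H3K4me3 interval at 22 of the 29 members with the mark whose starts are in the RefSeq promoter table, and the summit was a median of 440 bp from the nearest start. At the others the strongest peak lay elsewhere. A weaker H3K4me3 peak covered a listed start at PAX2 (fold 12.7), TBX1 (25.1) and NKX2-2 (33.3). The summit of the strongest peak was downstream of the nearest listed start by 82216 bp at PAX2, 43255 bp at PAX8 and 10259 bp at TBX1. It was downstream by 5475 bp at TBX4, 3942 bp at PAX3 and 2747 bp at NKX2-2. At NEUROD1 it was upstream, at -387 bp. Exon and intron positions were not used here. No share over all genes is given beside these counts, so they do not set the members apart.

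Some of these intervals were shared with a neighbouring gene. At 11 of 36 members the strongest H3K4me3 interval held an end of another gene record, against 41.7% of protein-coding genes with the mark. The neighbours were PAX8-AS1, TBX2-AS1, TBX3-AS1, LHX1-DT, SIX3-AS1, DLX2-DT, GATA6-AS1, NEUROG2-AS1 and PITX1-AS1 beside the factor each is named for, LOC124900760 at NEUROG2, NKX2-1-AS1 and SFTA3 at NKX2-1, and TTC6 at FOXA1. Whether such a peak belongs to the factor or to its neighbour cannot be told apart here.

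Of the 16 members without a mark, 5 had an H3K4me3 peak within 5 kb of the gene record and 6 had none within 50 kb. With 5 kb either side, members with neither mark fell from 16 to 11. Over all protein-coding genes they fell from 4751 to 4206. No share over all genes is given for 50 kb. The near peaks lay 2544 bp from DLX5 (fold 18.5), 2865 bp from SOX17 (6.99), 3089 bp from NKX2-5 (9.58), 3326 bp from HAND2 (5.47) and 4562 bp from HAND1 (4.45). Those without a peak in 50 kb were SOX9, PAX7, OTX2, TBX5, LHX8 and FOXA2. Of the 11 members with H3K4me3 only, PAX3 had the nearest H3K27ac peak, 1478 bp from its record with a fold of 3.57, and SOX2 the farthest, at 721 kb.

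The promoters of unmarked members were richer in CpG than those of unmarked genes as a whole. RefSeq promoters (250 bases before the start to 50 after) were found for 39 members, whose ratio of observed to expected CpG had a median of 0.797 (0.483 to 1.07). Each promoter is that of the outermost annotated start, whereas the class comes from peaks anywhere in the record with 1 kb either side. By class the median was 0.887 in 21 members with both marks, 0.670 in 8 with H3K4me3 only and 0.791 in 10 with neither. Over all protein-coding genes of these classes it was 0.833, 0.756 and 0.287. No peak lay within 1 kb of the outermost start at PAX2, PAX3 and TBX4 (0.56, 0.67 and 0.52), which had H3K4me3 only. The same held at PAX8, PAX9, LHX9 and NKX2-2 (0.48, 0.99, 0.80 and 0.97), which had both marks. The medians of members with H3K4me3 only and with both marks therefore include promoters without a peak. The 10 unmarked members held a median of 21 CpG sites per 300 bases and at least 9, the lowest being OTX2, against a median of 5 in 3506 unmarked genes. PAX7, an unmarked member, had the highest ratio of the 39.

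**Figure D5:**
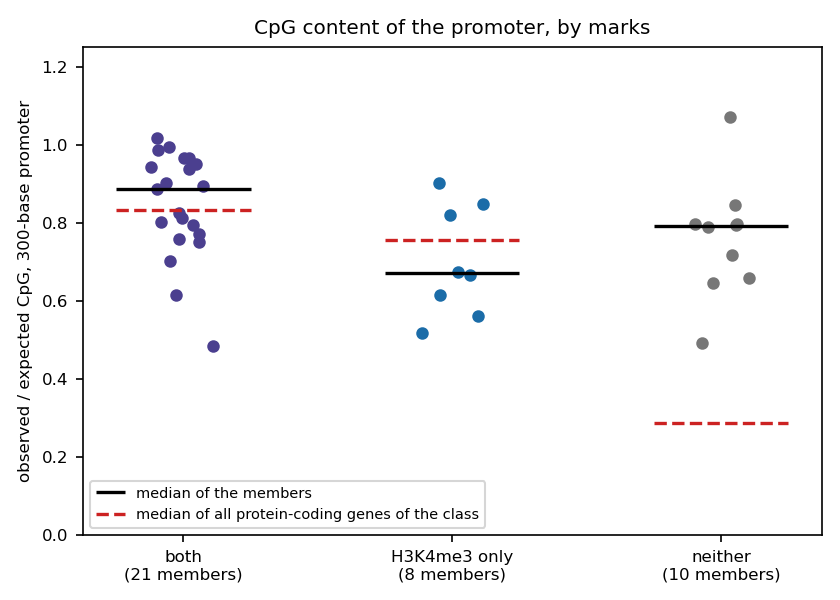
Ratio of observed to expected CpG in the 300-base promoter of 39 members by class, with the median of the members and of all protein-coding genes of that class. The promoter is that of the outermost annotated start. Unmarked members have a median of 0.791 and all unmarked genes one of 0.287.

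Short motifs were searched on both strands of the same 300 bases. The letters CCAAT were found in 23 of 39 member promoters (59.0%), against 36.4% of 15812 promoters of protein-coding genes. By class they were found in 13 of 21 with both marks, 3 of 8 with H3K4me3 only and 7 of 10 with neither. Over all protein-coding genes of these classes the shares were 36.2%, 31.8% and 38.0%. GGGCGG was found in 22 (56.4%, all promoters 58.3%) and CGGAAG in 3 (7.69%, all promoters 25.5%), and these last motifs can share the letters CGG. TATAAA was found in none of the 39, against 9.75% of all promoters. A match is not a bound site, and no match says only that the letters are not in this window.

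Super-enhancers are large clusters of H3K27ac that often lie near genes of cell identity. None of the 52 members overlapped a region of the authors' deposited table or was named there as a target. As only 2.92% and 2.25% of all protein-coding genes did or were, a count of 0 in 52 is near the background and is no result about the members. Of the 61 relatives 1 was named as a target, DLX4, and of the 24 blood cell factors 13 were, among them RUNX1, MYB, SPI1 and TAL1. The authors chose targets partly on expression. Within 500 kb of such a region were 6 of 52 members, against 27.7% of protein-coding genes, the nearest being GATA4 at 93.9 kb. For SIX3, with its wide H3K27ac interval, the nearest was 1725 kb away.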

How the data were processed

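H3K27ac and H3K4me3 in KBM7 cells were measured with 1 library per mark beside 1 input. Per the submitters' processing notes, Bowtie2 2.3.4, bedtools 2.20.1 and hg38 were used; the peak caller and read totals were not named in the sources used here. The authors' deposited peak lists give per peak a fold ratio, −log10 p and q values, a score and a summit, and hold 36951 H3K4me3 and 96659 H3K27ac peaks on the autosomes and X, with a lowest −log10 q of 1.33 and 1.32. The deposited super-enhancer table gives H3K27ac and input signal, per the file headers, and was used for its positions and targets.

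Fragments at a summit were solved from the deposited fold, read as (pileup + 1)/(expected + 1), and −log10 p, read as a Poisson upper tail, within 0.01. This succeeded for all 111 peaks in member windows, with 12 to 291 fragments. The 95% intervals cover counting error only. Gene records and promoters were from RefSeq GRCh38.p14, and an overlap needed 1 bp. Python 3.11.15, pandas 2.3.3 and scipy 1.17.1 were used, and the scripts were tested on simulated data.

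The members and the other lists were chosen with earlier results of these data known. Every member was named, with full values for members with both marks and the member of highest H3K4me3 fold per family; of each other list the 3 highest were named, and further names were chosen after their values were seen. No test was run. Other windows, thresholds, overlap rules and gene parts were tried.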

Additional observations from a re-analysis of the deposited data

How the results depend on the processing

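Of 60 alternative values, 56 stayed within 1.5 times the main count or, for a median fold, within the counting interval of the peak nearest to it. Members with both marks numbered 20 to 26 of 52, against 25, and 19 of the 39 with annotated starts. Counts out of 39 were set against the main counts out of 52, not as shares. With only 1 kb around the annotated starts, H3K4me3 only was found at 7 of these 39 members (6.34% of genes). The median of the strongest H3K27ac fold was 14.3 there, against 23.3 over all genes. With only 1 kb around both ends of the gene record, H3K27ac only was found at 1 member, PAX8 (2.84% of genes), and that median was again 14.3, against 22.95 over all genes. The cause of the lower median was not tested. PAX6, PAX8, PAX9, TBX1 and LHX9 lost the class with both marks at the ends, and LHX1, GATA6 and NEUROG2 lost it with a −log10 q of at least 10. LHX1 and NEUROG2 also lost it with the top 50% of peaks, and PAX8 and TBX1 at the annotated starts. SIX3 lost it where at least 50% of a peak had to lie in the window. LHX1, FOXA1, GATA6 and NEUROG2 lost it with the H3K27ac list cut by fold to the length of the H3K4me3 list. H3K4me3 only was then found at 15 members (9.31% of genes). Of the 25 members with both marks, 15 kept this class in every setting that applied to them. Of the 11 members with H3K4me3 only, 6 kept this class in every setting that applied to them. PAX3, LHX5 and NEUROD1 had neither mark with the top 50% of peaks of each list by fold. NEUROD1 also had neither with a −log10 q of at least 10 and without a window. PAX3 and TBX4 had neither at the ends and at the annotated starts, and GATA4 at the ends. PAX3 had both marks with 5 kb either side. With 5 kb either side, 15 members had H3K4me3 only (6.24% of genes) and 11 neither (21.1%). Both marks were found at 60.4% to 70.1% of genes under these alternatives. No paired analysis was possible because each mark has 1 library. The weakest called member peaks had 13 fragments for H3K4me3 and 12 for H3K27ac, and weaker enrichment may not have been called.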
